A study of Mus musculus with 4 samples.

Results

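Tight junctions seal neighbouring cells to each other. Claudins, membrane proteins that cross the bilayer several times, form the sealing strands and set which ions pass. Occludin and the MARVEL-domain proteins sit in or near the same strands, and the zonula occludens scaffolds tie them to actin inside the cell. In the brain such seals are known from capillary endothelium, the epithelium of the choroid plexus, the arachnoid layer of the meninges and the myelin sheath. Neurons are not known for tight junction strands, although they express several of the scaffold genes.

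The 9 genes described here, of 32681 in the deposited table, are the claudins Cldn1, Cldn3, Cldn10, Cldn11 and Cldn12, occludin (Ocln), its relative Marveld1, and the zonula occludens scaffolds Tjp1 and Tjp3. The list was chosen by symbol with the measured log2 differences of DcpS shRNA against control shRNA already known, Cldn11 among the larger ones, so their differences between the groups are given as a description and support nothing further. Their levels were measured by RNA sequencing in 4 primary neuron cultures from the neocortex of wild-type CD-1 mice, an outbred strain, at embryonic day 13. Transfection delivered a control short hairpin RNA (shRNA) to 2 cultures, called the control cultures, and an shRNA directed at DcpS to the other 2, called the DcpS cultures. DcpS is an enzyme that degrades the cap remnant left by mRNA decay. All 4 cultures were grown in Neurobasal medium with B27 supplement. The hairpin sequence and the share of cells transfected are not known here. No label ties a culture to its own litter, so the p-values cover the spread between these 4 samples alone, and that spread may be technical.

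The libraries held 17754768 to 21793685 reads assigned to genes. Dcps, the targeted gene, had a normalised read count of 499.8 and 506.6 in control cultures 1 and 2, against 114.5 and 119.6 in the DcpS cultures, so the targeted transcript was lower in both libraries labelled DcpS shRNA. A normalised read count is the number of reads after division by a size factor that puts the libraries on 1 scale. The neuronal genes Tubb3, Map2 and Dcx each had normalised read counts above those of every tight junction gene described below. The summed value of 7 neuron markers was 87834 and 85734 in control cultures 1 and 2, against 82586 and 81256 in the DcpS cultures. Cells other than neurons were also represented: 12 meningeal fibroblast markers summed to 11388 and 12530 in control cultures 1 and 2, against 6980 and 6742 in the DcpS cultures. In RNA from whole cultures, fewer cells of a type and less RNA per cell cannot be told apart.

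A pair of 7-base words, ACGTGCA and CACGTGC, occurs in the Dcps transcript as 1 overlapping run and was more frequent in the 3′ UTRs of genes called lower (33.1% of 646 scanned) than in those of all scanned genes that were tested (8.0% of 13708). The words were chosen with earlier results of these data known, and only the sense strand of GENCODE M21 transcripts was searched. Among the 9 tight junction genes, 1 had a word in its 3′ UTR, Marveld1, and 2 had one in their coding sequence, Cldn11 and Tjp3. A coding word was present in 12.6% of all scanned genes that were tested, in 21.7% of those called lower and in 7.07% of those called higher. Among the 52 scanned tight junction genes that were tested, the other genes of the pathway included, 10 (19.2%) had one. The sites are shown, 30 transcript bases each from 5′ to 3′, because they are where these transcripts and Dcps share letters, with the shared word in capitals. The positions on GRCm38 are those of the word: chr9:35124756-35124763 (minus strand) for Dcps, coding in 1 of its transcripts and 3′ UTR in another, chr3:31153917-31153923 (plus strand) for Cldn11, next to an exon junction that lies inside the printed run, chr10:81274732-81274738 (minus strand) for Tjp3 and chr19:42151295-42151301 (plus strand) for Marveld1. Pard3b, a polarity gene described further on, is added because it has the longer 8-base run in its 3′ UTR (chr1:62639329-62639336, plus strand), as do Marveld2 (chr13:100596246-100596253, minus strand) and the scaffold Magi3 (chr3:104015014-104015021, minus strand), where the run is coding in another transcript. Magi3 was not called (log2 difference −0.04).
Dcps: actatcacctgCACGTGCAtttcacagctc
Cldn11: ccttccaggctACGTGCAggcttgtagagc
Tjp3: gcgcctcaactACGTGCAgtactaccccat
Marveld1: gagctcttctcCACGTGCcttccagctttg
Pard3b: caagacaagaaCACGTGCAcaagactgaga
Marveld2: aaacatggtagCACGTGCAcaccaccctga
Magi3: ctggagggtgcCACGTGCAaataaagtcac

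Whether these words bear on the level of any of these transcripts was not tested. Over the 52 tight junction genes that were tested and had a scanned 3′ UTR, the other genes of the pathway included, 5 (9.62%) had a word there, and 1 of the 5, Pard3b, was called.

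On a scale that allows genes to be compared, reads scaled to exon length and library total (RPKM), the 9 genes spanned a wide range. Tjp1 was the highest, with a mean level of 10.1 ± 0.483 RPKM (SD over the 4 libraries, n = 4), and Cldn12 was next at 8.80 ± 0.575 RPKM. Cldn11 followed at 2.71 ± 1.29 RPKM, ahead of Marveld1 at 1.75 ± 0.230 RPKM and Tjp3 at 1.14 ± 0.245 RPKM. The lowest were Cldn1 at 0.591 ± 0.128, Ocln at 0.477 ± 0.0680, Cldn3 at 0.269 ± 0.0608 and Cldn10 at 0.139 ± 0.0323 RPKM. Of neighbours in this order, the ranges over the 4 libraries overlapped for Cldn11 with Marveld1 and for Cldn1 with Ocln. Compared within each library, Cldn1 lay above Ocln in all 4. Cldn11 lay above Marveld1 in both controls (3.66 and 3.96 against 2.00 and 1.82 RPKM) and in DcpS shRNA 1. In DcpS shRNA 2 it lay below (1.39 against 1.74 RPKM), so the order of this pair is not settled over all libraries. The scaffold and 1 claudin thus made up most of the RNA of these genes, and occludin, a defining protein of epithelial and endothelial strands, was among the low ones.

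**Figure D1:**
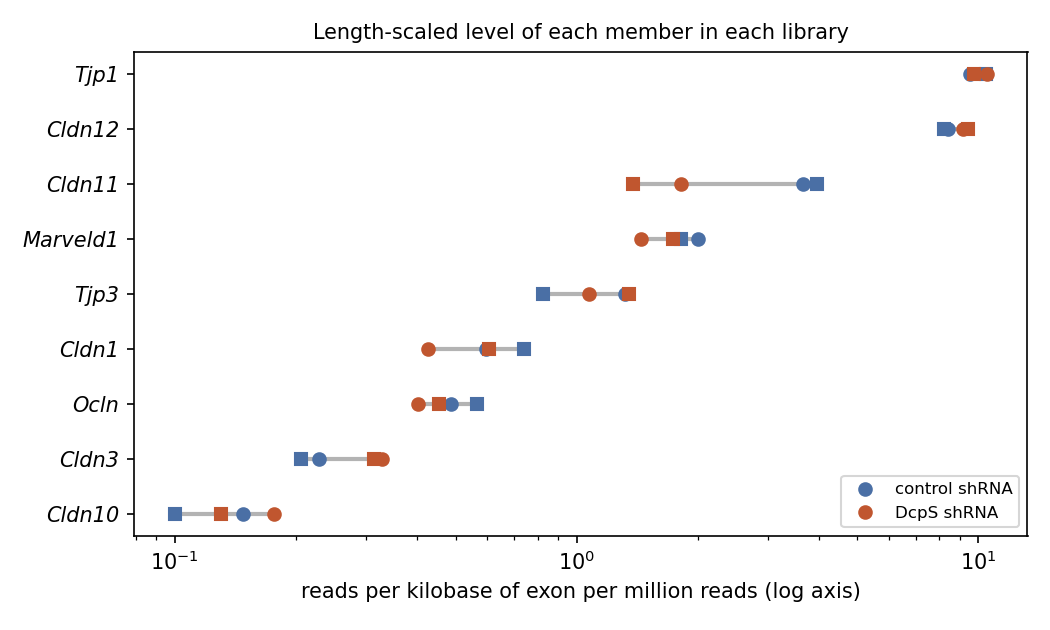
Level of each of the 9 genes in each library, in RPKM on a log axis; blue marks control shRNA and orange DcpS shRNA, circles and squares are the libraries numbered 1 and 2, and grey lines span the 4 libraries. Tjp1 and Cldn12 lie highest and Cldn10 lowest, and Cldn11 has the widest span, from 1.39 to 3.96.

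Cldn11 encodes the claudin of central nervous system myelin, also known from the arachnoid layer. The gene lies on chromosome 3, 31149920 to 31164324, plus strand (GRCm38, GENCODE M21), with no annotated exon of another gene over its exons. Its normalised read count was 135.9 and 146.7 in control cultures 1 and 2, against 67.2 and 51.4 in the DcpS cultures. Both DcpS shRNA libraries were below both controls. The mean went from 141 ± 7.62 to 59.3 ± 11.2 (SD, n = 2 per group), leaving 42.0% ± 7.92 of the control mean (SD, n = 2). The underlying reads numbered 143 in each control, with an exact Poisson 95% interval of 121 to 168, against 74 (58.1 to 92.9) and 46 (33.7 to 61.4) with DcpS shRNA. These intervals cover counting error only, and those of the controls do not reach those of the DcpS shRNA libraries. The log2 difference, DcpS shRNA minus control on the log2(value + 1) scale, was −1.25 (SE 0.17). It was past an adjusted p of 0.05 over all genes tested in limma, edgeR and DESeq2, in every alternative run and without any 1 library, where it ran from −1.44 to −1.06.

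**Figure D2:**
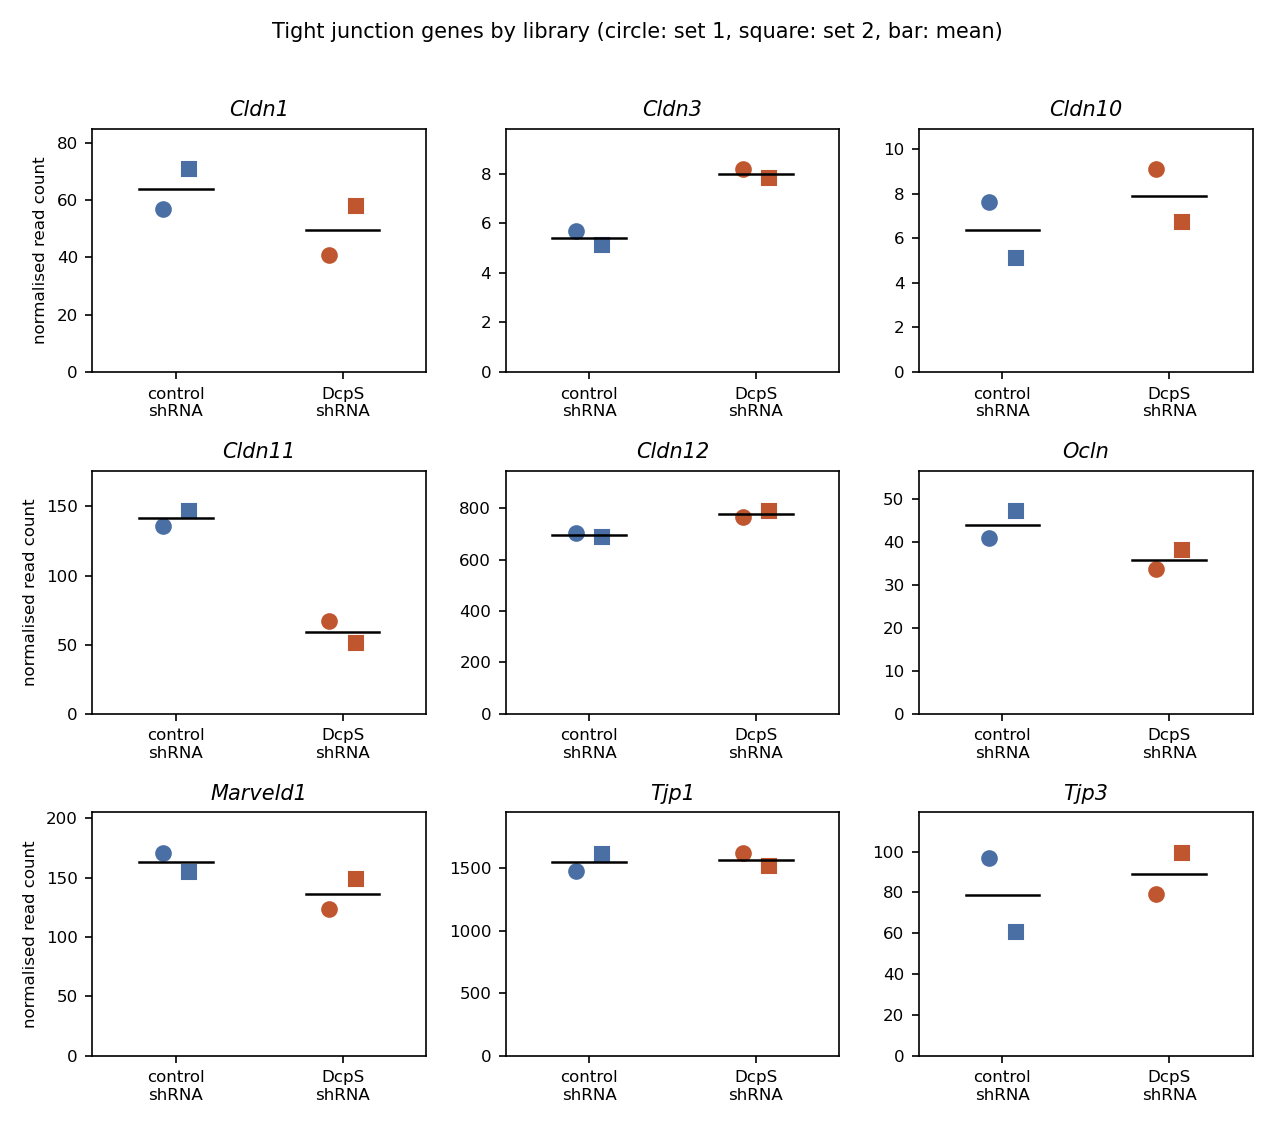
Normalised read count of each gene in the 2 control shRNA and 2 DcpS shRNA cultures; circles and squares are the libraries numbered 1 and 2, bars are group means, and each vertical axis starts at 0 with its own range. Cldn11 goes from 135.9 and 146.7 to 67.2 and 51.4, while Tjp1, Tjp3, Cldn1 and Cldn10 have overlapping groups.

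Of the 9 genes, 7 passed the filter on low counts, and of these 1 was called lower, Cldn11, and 0 higher. The calls over all 18110 genes tested were 5.79% in either direction, 3.65% lower and 2.14% higher. At an unadjusted p under 0.05 the count was 2 of 7 in limma, 2 in edgeR and 1 in DESeq2. Since this comparison was known when the genes were listed, nothing is read from the share. The median log2 difference of the 7 was −0.26, beside 0.00074 for all genes tested. The groups did not overlap for 4 of the 7, Cldn11, Cldn12, Ocln and Marveld1, where 48.4% of all genes tested had groups that did not overlap.

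Cldn12 (chromosome 5, 5489537 to 5514958, minus strand), a claudin of many epithelia that is also found in brain, had the highest level per length of the numbered claudins here. Its normalised read count was 706.0 and 688.1 in control cultures 1 and 2, against 766.8 and 790.1 in the DcpS cultures. Both DcpS shRNA libraries were above both controls, by 11.7% in the mean. The log2 difference was 0.16 (SE 0.07, 95% interval 0.02 to 0.30), which was not called over all genes. Cldn11 per 100 Cldn12 normalised reads was 19.2 and 21.3 in control cultures 1 and 2, against 8.77 and 6.51 in the DcpS cultures, so the ratio of these claudins to each other was lower in both DcpS shRNA libraries. Of the summed RPKM of 17 numbered claudins with a value, Cldn12 made up 34.2% and 31.6% in control cultures 1 and 2, against 40.9% and 41.1% in the DcpS cultures. The share of Cldn11 was 14.9% and 15.2% in control cultures 1 and 2, against 8.11% and 6.04% in the DcpS cultures. The sum includes Cldn20 and Cldn34c1, whose reads are uncertain as described further on. Without them, over 15 claudins and as a choice made after seeing the data, the Cldn12 share was 57.3% and 55.7% against 69.0% and 70.3%, and that of Cldn11 was 24.9% and 26.8% against 13.7% and 10.3%.

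Cldn1 (chromosome 16, 26356642 to 26371841, minus strand), a sealing claudin of skin and other epithelia, had 57.0 and 70.8 normalised reads in control cultures 1 and 2, against 40.9 and 58.1 in the DcpS cultures. The groups overlapped, and the log2 difference of −0.37 (SE 0.22) had a 95% interval of −0.84 to 0.09. In both groups the library numbered 2 had the higher value.

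Cldn3, another sealing claudin (chromosome 5, 134986214 to 134987472, plus strand), and Cldn10, which forms ion-selective pores (chromosome 14, 118787908 to 118875489, plus strand), were under the filter on low counts. Cldn3 had 6 and 5 reads in control cultures 1 and 2, against 9 and 7 in the DcpS cultures, and the exact Poisson 95% intervals ran from 1.62 to 17.1 over the 4 libraries. Its normalised values did not overlap between the groups, yet the intervals of all 4 libraries did. Cldn10 had 8 and 5 reads in control cultures 1 and 2, against 10 and 6 in the DcpS cultures, and both its values and its intervals overlapped. With no filter on low counts both were tested, and neither was called.

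Ocln (chromosome 13, 100496507 to 100552718, minus strand) encodes occludin, a regulator of strand assembly. Its normalised read count was 40.9 and 47.2 in control cultures 1 and 2, against 33.6 and 38.0 in the DcpS cultures. The groups did not overlap, though the gap between them was smaller than the spread within either group. The log2 difference was −0.29 (SE 0.23, 95% interval −0.78 to 0.20) and was not called. Marveld1 (chromosome 19, 42147400 to 42151703, plus strand), a membrane protein with the same MARVEL domain, had 171.0 and 154.9 normalised reads in control cultures 1 and 2, against 123.6 and 148.6 in the DcpS cultures. The log2 difference was −0.26 (SE 0.14, 95% interval −0.56 to 0.03), not called, with control 2 and DcpS shRNA 2 close to each other.

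Tjp1 (chromosome 7, 65296165 to 65527781, minus strand) encodes the zonula occludens scaffold that also sits at adherens and gap junctions. Its normalised read count was 1477 and 1616 in control cultures 1 and 2, against 1624 and 1515 in the DcpS cultures. The groups overlapped, and with 1356 to 1787 reads a library the 95% interval of the log2 difference was narrow, −0.11 to 0.15 about 0.02. Tjp3 (chromosome 10, 81273207 to 81291581, minus strand), the related scaffold of epithelia, had 96.9 and 60.5 normalised reads in control cultures 1 and 2, against 79.0 and 99.5 in the DcpS cultures. The controls differed from each other by more than the groups did, the log2 difference was 0.21 (SE 0.21, 95% interval −0.24 to 0.66), and its direction turned without control 2 (−0.13). Exons of Apba3 on the opposite strand cover 1.10% of those of Tjp3, and exons of Wbscr25 cover 3.20% of those of Cldn3. Whether the reads were counted by strand is not known here. Cldn11 per 100 Tjp1 normalised reads was 9.20 and 9.07 in control cultures 1 and 2, against 4.14 and 3.39 in the DcpS cultures.

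The other genes of the pathway were taken by family and role, with earlier results of these data known, as a list of 67 claudins, MARVEL and angulin genes, junctional adhesion molecules (JAM) and relatives, scaffolds and polarity genes. Of these 54 were in the table and 46 were tested. With DcpS shRNA 3 were lower (beside 3.65% of all genes tested), 0 were higher and 43 were not called, and the median log2 difference was −0.02. In the higher direction limma and edgeR had 3 at an unadjusted p under 0.05 and DESeq2 had 1, and each of these tools called 0. The groups did not overlap for 26 of the 46, beside 48.4% of all genes tested. The 3 lower genes were Cldn2, Pard6b and Pard3b.

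Cldn2, the pore-forming claudin of leaky epithelia such as the choroid plexus, had 24.7 and 23.6 normalised reads in control cultures 1 and 2, against 9.09 and 8.94 in the DcpS cultures. Its log2 difference of −1.33 (SE 0.36) was close to that of Cldn11 in size but rested on 8 to 26 reads a library (limma, Benjamini-Hochberg adjusted p 0.0379). The call was lost on leaving out any of the 4 libraries, while the log2 difference stayed between −1.36 and −1.30: in limma the Benjamini-Hochberg adjusted p became 0.190 and 0.169 on dropping control 1 and control 2, and 0.0533 and 0.0689 on dropping DcpS shRNA 1 and DcpS shRNA 2. Pard6b, a subunit of the polarity complex that holds atypical protein kinase C, had 234.7 and 229.7 normalised reads in control cultures 1 and 2, against 145.4 and 156.4 in the DcpS cultures. It fell by 0.62 on the log2 scale (SE 0.12; limma, Benjamini-Hochberg adjusted p 0.00431), and this call held in every alternative run, with adjusted p up to 0.0435.

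Pard3b, a relative of the polarity scaffold Pard3 and the gene with the 8-base word shown above, had 219.5 and 191.8 normalised reads in control cultures 1 and 2, against 152.6 and 147.5 in the DcpS cultures. Its log2 difference was −0.45 (SE 0.12; limma, Benjamini-Hochberg adjusted p 0.0451). This call too was lost on leaving out any library, while the log2 difference ran from −0.55 to −0.35, with Benjamini-Hochberg adjusted limma p of 0.329 and 0.0516 on dropping control 1 and control 2, and 0.0511 and 0.0993 on dropping DcpS shRNA 1 and DcpS shRNA 2. DESeq2 gave a log2 difference of −0.46 with an adjusted p of 0.308. Pard3 itself, at 1430 and 1390 in control cultures 1 and 2, against 1394 and 1409 in the DcpS cultures, had a log2 difference of −0.01 (95% interval −0.13 to 0.11). The relatives of Pard6b were not called either: Pard6a had a log2 difference of −0.15 (SE 0.10) and Pard6g of −0.08 (SE 0.06).

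**Figure D3:**
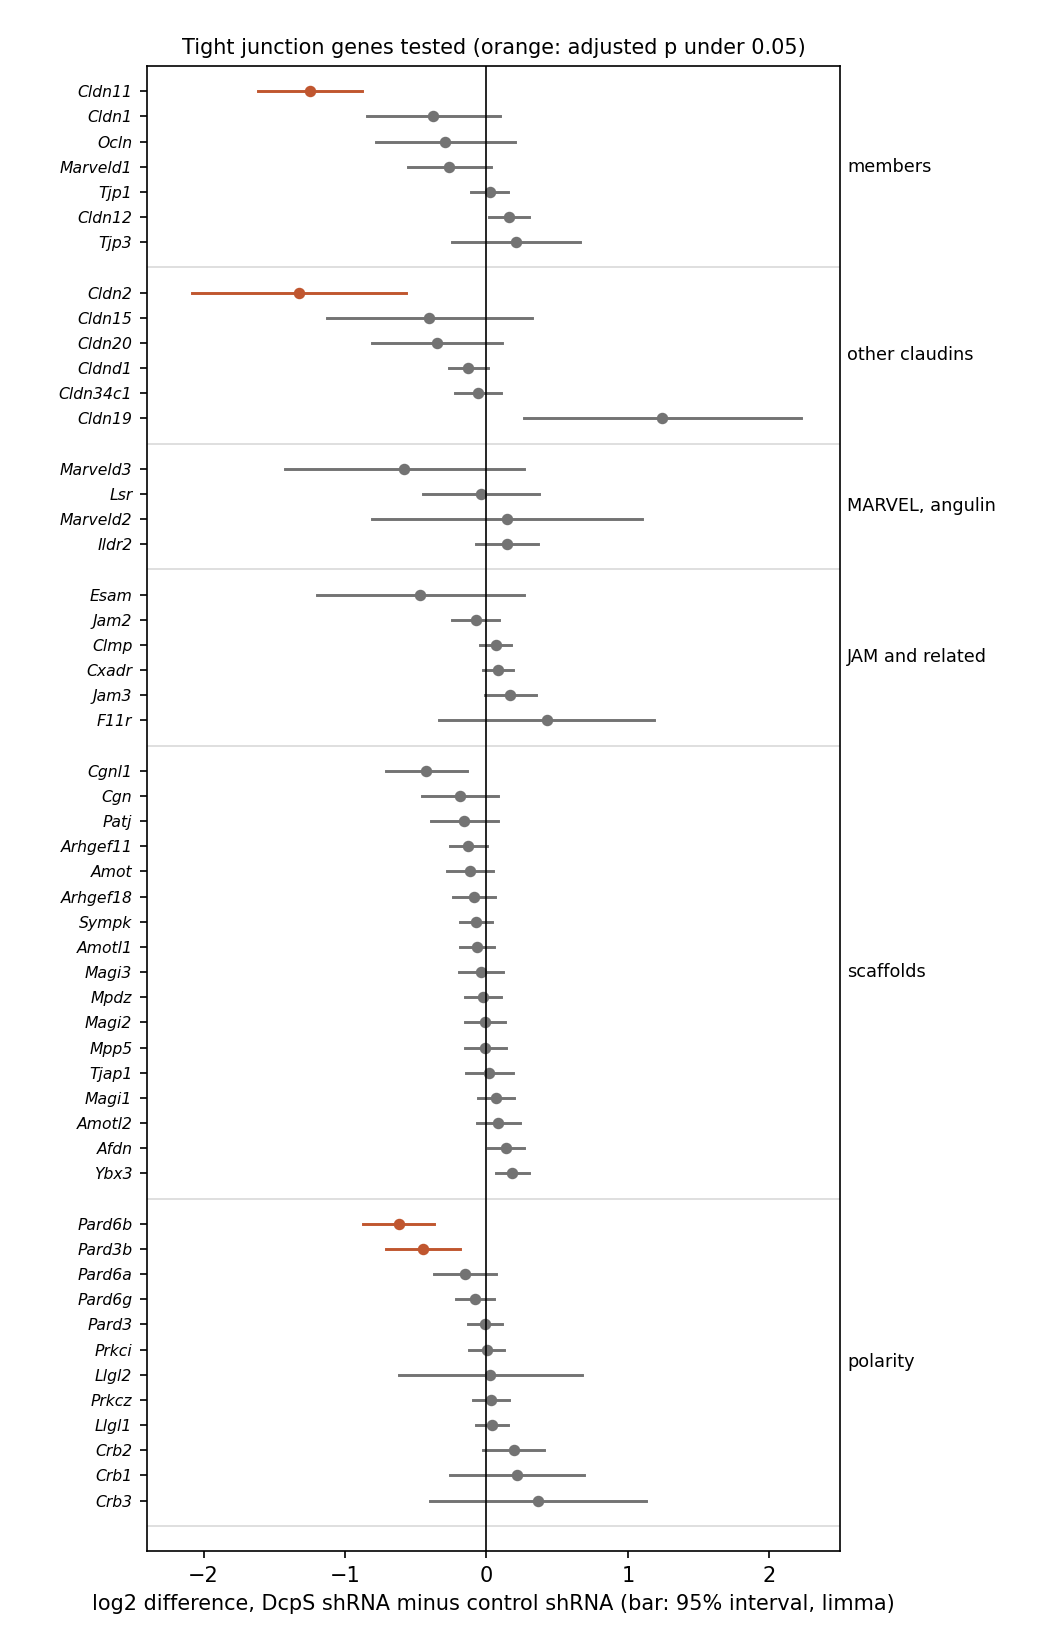
Log2 difference (DcpS shRNA minus control shRNA, with its 95% interval from limma) of 52 of the 53 tight junction genes tested, by role; orange marks genes with an adjusted p under 0.05. Cldn11, Cldn2, Pard6b and Pard3b are lower, and the scaffolds lie between −0.42 and 0.18.

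Among the other claudins, 6 of 13 in the table were tested and only Cldn2 was called. Per length the highest of this group were Cldnd1, a claudin-domain gene, at 17.0 RPKM, Cldn34c1 at 5.66 RPKM and Cldn20 at 4.29 RPKM, with log2 differences of −0.13 (SE 0.06), −0.06 (SE 0.08) and −0.35 (SE 0.22). Cldn20 lies inside Tfb1m on the opposite strand, and Cldn34c1 belongs to a family of similar copies on the X chromosome, so reads of either cannot be given to it with certainty. Cldn5, the defining claudin of brain endothelium, had 2, 0, 1 and 0 reads in control 1, control 2, DcpS shRNA 1 and DcpS shRNA 2. A count of 0 allows up to 3 reads, 0.155 and 0.169 CPM (counts scaled to the library total) in those libraries. Cldn6 and Cldn7 were at or below 3 reads in each library.

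MARVEL and angulin genes, several of which mark corners where 3 cells meet, gave 0 calls among 4 tested. Their highest levels were 1.58 RPKM for Ildr2 and 1.49 RPKM for Lsr, with log2 differences of 0.15 (SE 0.10) and −0.04 (SE 0.19), and exons of Gm4673 on the opposite strand cover 43.6% of those of Lsr. Marveld3 followed at 0.188 RPKM with a log2 difference of −0.58 (SE 0.40). Marveld2, or tricellulin, which shares the 8-base word with Pard3b, had a log2 difference of 0.14 with a 95% interval of −0.81 to 1.10, at 8 to 12 reads a library.

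Of the immunoglobulin-type adhesion genes, some were far more abundant. Cxadr, the coxsackievirus and adenovirus receptor, reached 39.6 ± 1.37 RPKM (SD, n = 4 libraries), Clmp 24.7 ± 0.660 and Jam3 7.49 ± 0.619 RPKM, while F11r was at 0.369 and Esam at 0.289 RPKM. None of the 6 tested was called, and the log2 differences of these genes were 0.08 (SE 0.05), 0.06 (SE 0.05) and 0.17 (SE 0.08). Exons of Gm48796 on the opposite strand cover 36.2% of those of Jam3.

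Of 18 scaffold genes 0 were called. Ybx3, a Y-box factor that binds zonula occludens scaffolds, was the highest at 30.7 RPKM and had a log2 difference of 0.18 (SE 0.06; limma, Benjamini-Hochberg adjusted p 0.0684). On dropping DcpS shRNA 2 it was called, with a Benjamini-Hochberg adjusted limma p of 0.0275, as was the actin-binding scaffold Afdn (0.00207), which had a log2 difference of 0.14 (SE 0.06) over all libraries. Sympk, named for the plaque but mainly a polyadenylation factor, stood at −0.07 (SE 0.05). Of the 12 polarity genes, Llgl1 at 35.1 RPKM, Pard6g at 14.6 and Prkcz at 11.9 RPKM were the most abundant, and none of these was called.

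Markers of the cells that are known to carry Cldn11 were read beside it. Of 12 oligodendrocyte genes 7 were tested, 1 was called higher, Mbp (0.47, SE 0.12), and 0 lower, with a median log2 difference of −0.21. The lineage factors Olig2 (−0.79, 95% interval −1.45 to −0.13) and Olig1 (−0.58, 95% interval −1.11 to −0.06) had lower values in both DcpS cultures than in both controls and were not called. The summed value of the list was 665 and 701 in control cultures 1 and 2, against 703 and 740 in the DcpS cultures. Mbp was no longer called on dropping control 1 or DcpS shRNA 2, where the Benjamini-Hochberg adjusted limma p was 0.226 and 0.0904, nor in DESeq2 (0.221). The mature myelin genes Mag, Mobp, Opalin and Mal had at most 3 reads in any library, and Sox10, the transcription factor of the lineage, 0, 0, 1 and 4. Of 7 arachnoid and epithelial markers 4 were tested, 1 was called lower, Krt8, and 0 higher. The others tested were not called: Krt18 (−0.42, SE 0.20), Klf5 (−0.27, SE 0.20) and Dpp4 (−0.01, SE 0.43). The transporter Slc47a1 and the cadherin Cdh1 had at most 5 reads in any library, and Epcam had 5, 8, 6 and 8. The keratin Krt8 was lower (−0.63, SE 0.17) but was no longer called on dropping control 1, control 2 or DcpS shRNA 1, where the Benjamini-Hochberg adjusted limma p was 0.0882, 0.142 and 0.135, nor in DESeq2 (0.271). The sum of that list was 297 and 316 in control cultures 1 and 2, against 211 and 242 in the DcpS cultures.

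Meningeal fibroblast markers included genes that were lower in the same libraries as Cldn11. Of 12 tested, 7 were lower and 0 higher, with a median log2 difference of −0.60, and 5 to 7 were called when any 1 library was left out. The matrix protein Postn (−1.07, SE 0.08), the transcription factor Tbx18, which has a word in its 3′ UTR (−0.99, SE 0.18), and the collagen Col1a1 (−0.87, SE 0.06) had the largest differences. In the other direction were 2 of the 12, Crabp2 (0.49, SE 0.27) and Slc6a13 (0.36, SE 0.29), neither called. Cldn11 per 100 Postn normalised reads was 15.9 and 16.7 in control cultures 1 and 2, against 17.6 and 11.6 in the DcpS cultures, so this ratio overlapped between the groups. Cldn11 per 100 Col1a1 was 5.47 and 5.53 in control cultures 1 and 2, against 4.56 and 3.86 in the DcpS cultures, which did not overlap. The ratios to Col3a1 (3.05 and 2.97 against 2.41 and 1.89) and to Tbx18 (131 and 112 against 110 and 92.0) did not overlap either, so 3 of 4 fibroblast ratios were lower in both DcpS cultures. For Tbx18 control 2 and DcpS shRNA 1 were close to each other. The ratios to the astrocyte gene Gja1 (19.8 and 20.8 against 16.3 and 11.1) and the choroid plexus gene Ttr (2.71 and 2.82 against 1.79 and 1.25) were lower as well. No share of such ratios over all genes was taken, so nothing is read from their count. The part of fibroblasts in the difference of Cldn11 was not tested.

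Markers of astrocytes, choroid plexus and endothelium included genes that were called as well. Of 7 astrocyte markers 5 were lower, 3 on dropping control 2 or DcpS shRNA 1. Aqp4 (−1.13, SE 0.25) and Gfap (−0.91, SE 0.21) had the largest differences, and each lost the call in 3 of 13 alternatives. Gja1 stood at −0.67 (SE 0.08). The sum of the astrocyte list was 6397 and 6572 in control cultures 1 and 2, against 5014 and 5256 in the DcpS cultures. Of 7 choroid plexus markers tested 3 were lower, 1 on dropping either control and 2 on dropping either DcpS shRNA library, and Ttr, the thyroxine carrier of that epithelium, had a log2 difference of −0.38 (SE 0.06). On the same list Kcne2 had a difference in the other direction (0.48, 95% interval 0.04 to 0.92), not called, and Clic6 stood at −0.04 (SE 0.11). Ttr made up most of the choroid plexus sum, which was 5693 and 5901 in control cultures 1 and 2, against 4326 and 4649 in the DcpS cultures. Of 4 endothelial markers tested 2 were lower, Kdr and the transporter Slco1c1 (−0.70, SE 0.09), while Tie1 had 0, 0, 1 and 2 reads. Pecam1 had a difference in the other direction (0.93, 95% interval 0.01 to 1.86), not called, at 6, 12, 22 and 13 reads. Kdr (−0.74, SE 0.18) was no longer called on dropping control 2, with a Benjamini-Hochberg adjusted limma p of 0.277, nor in DESeq2 (0.217). Slco1c1 made up most of the endothelial sum, which was 566 and 639 in control cultures 1 and 2, against 374 and 389 in the DcpS cultures. Cdh5, Tek, Flt1 and Emcn on the same list had at most 15 reads in any library, so the sum says little about them. Of 7 neuron markers 1 was lower, Snap25 (−0.26), and 1 higher, Rbfox3 (0.24), with 4 called on dropping DcpS shRNA 1, 2 on dropping DcpS shRNA 2 and 1 on dropping either control. Snap25 was no longer called on dropping control 1, and Rbfox3 on dropping control 2 or DcpS shRNA 2, where the Benjamini-Hochberg adjusted limma p was 0.102, 0.310 and 0.0586, and DESeq2 gave Rbfox3 0.136. The part of these cells in the differences of Cldn11 and Cldn2 was not tested.

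**Figure D4:**
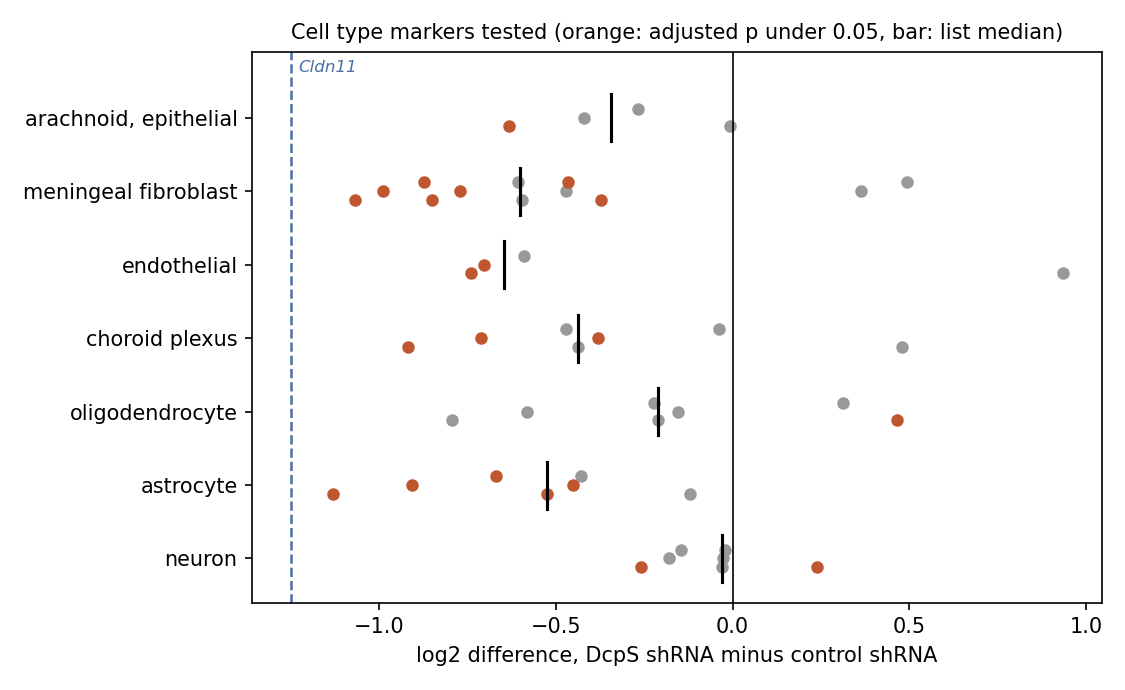
Log2 difference (DcpS shRNA minus control shRNA) of each tested marker by cell type list; each point is a gene, orange marks an adjusted p under 0.05, black bars are list medians and the dashed line is Cldn11 at −1.25. The list medians are −0.65 (endothelial), −0.60 (meningeal fibroblast), −0.53 (astrocyte), −0.44 (choroid plexus), −0.34 (arachnoid and epithelial), −0.21 (oligodendrocyte) and −0.03 (neuron).

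The genes whose pattern over the 4 libraries was most like that of Cldn11 were found by the Euclidean distance between log2(value + 1) profiles centred on their means, among 3055 genes of similar level. Itga1, a collagen-binding integrin subunit, was the nearest at a distance of 0.09, with 170.1 and 194.9 normalised reads in control cultures 1 and 2, against 83.6 and 68.2 in the DcpS cultures. Vasn, a membrane protein that binds TGF-beta, followed at 0.23, then the anticoagulant Pros1 at 0.25 and the receptor Pear1 at 0.26. Itga1, Vasn and Pros1 had a word in their 3′ UTR, and Pear1 did not. With 4 libraries such a profile mainly repeats the difference between the groups, and these values are a description.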

How the data were processed

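Total RNA of 4 cultures was sequenced, 2 per group. Per the submitters' processing notes, reads were processed on GRCm38 with tools that include HISAT2 2.2.0, SAMtools 1.3.1, Picard, featureCounts and DESeq2; annotation, strand setting and the handling of multi-mapped reads are not stated there. The deposited table holds a signal per gene and library: read counts divided by 1 size factor per library, as every value was a whole multiple of 1 step per column (100% of values, tolerance 0.001). Libraries of a group differed by more than sampling noise (chi-square per degree of freedom 2.04 and 3.73).

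The main test was limma 3.58.1 (R 4.3.3) on log2(value + 1) with a mean-variance trend and robust moderation, a model of group alone, and Benjamini-Hochberg adjustment over the 18110 genes passing edgeR's filterByExpr (minimum count 10); a call is an adjusted p under 0.05. Fold changes on this scale understate those of low genes. An exact permutation test of 2 against 2 cannot go below p = 0.333. The fit was tested on simulated data. Whole reads were recovered for edgeR 4.0.16 and DESeq2 1.42.0: edgeR called 1045 genes and limma 1048. Other alternatives were scaling, pseudocount, filter, replicate block and leaving out each library. Lengths, positions and words came from GENCODE M21.

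The members, gene lists and words were chosen with earlier results of these data known. Named genes were the members, Dcps, and the called tight junction genes, up to 12 by size of log2 difference. To these were added the 3 highest per length in each subgroup, up to 3 called markers a list, and the 5 genes most like Cldn11. Not all named genes are reported here. Of the markers, those whose values touch a tight junction result are printed. Further genes (Pard3, Pard6a, Cldn5 to Cldn7, Marveld2, Magi3, F11r, Esam, Olig1, Olig2, Pecam1, genes at low counts) were named after their values were seen. So were Crabp2, Slc6a13, Kcne2, Clic6, Krt18, Klf5 and Dpp4.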

Additional observations from a re-analysis of the deposited data

How the results depend on the processing

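The call of Cldn11, and of no other member, was the same in all 13 alternatives. The count over all genes was 1048, and it was 448 with DESeq2, 1626 with the replicate block in limma (1405 in edgeR), and 594 to 1439 when 1 library was left out (670 without control 1, 594 without control 2). Of the other tight junction genes 3 were called, and 1 with DESeq2 (Pard6b; it gave no adjusted p for Cldn2), 5 with the replicate block in limma (Cgnl1 lower and Ybx3 higher in addition), and 1 to 3 when 1 library was left out: Pard6b each time, joined by Cldn19 (higher) without control 1 and by Afdn and Ybx3 (higher) without DcpS shRNA 2. The cause was not tested. The labels number the libraries as set 1 and set 2 in both groups but do not say what a set shares. Libraries of the same set number deviated together only weakly (correlation 0.04 across genes). For single named genes, 491 values kept direction and side of the threshold or stayed uncalled, 37 lost the call, 3 gained it and 0 called values turned. Depth limits Cldn3, Cldn10 and most claudins outside the tested ones, with at most 10 reads a library.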

Other observations

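Cldn20 and Cldn1, which lie on different chromosomes, had nearly the same number of reads in each library. In control 1, control 2, DcpS shRNA 1 and DcpS shRNA 2, Cldn1 had 60, 69, 45 and 52 reads, and Cldn20 had 59, 68, 46 and 51. The pair was noticed after the values were seen. Cldn9, a claudin of the inner ear, had 4, 3, 9 and 7 reads, too few to be tested. Cldn19, a claudin of kidney and peripheral myelin, had a log2 difference of 1.24 (SE 0.46; limma, Benjamini-Hochberg adjusted p 0.147), with 10.5, 4.10, 16.4 and 17.9 normalised reads.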
